A study of Mus musculus with 4 samples.

Results

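Mgp encodes matrix Gla protein and Spp1 encodes osteopontin, both secreted proteins of the extracellular matrix. They are 2 of the 32285 genes in the count matrices, and they were chosen because their RNA had differed between Ets1 knockout and control libraries in an earlier look at these data. Their knockout-against-control values are therefore given as a description without a p-value, and the tests concern other genes and contrasts between cell classes. The lists of other genes were drawn up with earlier results known too, so their tests are not independent of that knowledge. The libraries hold ventricular cells of mouse embryos at embryonic day 14.5 on a C57BL/6 background. Both groups carry Tie2Cre. The 2 control libraries come from Tie2Cre;Ets1 fl/+ embryos, which keep 1 intact Ets1 allele, and the 2 knockout (eKO) libraries come from Tie2Cre;Ets1 fl/fl embryos. Each library pools ventricles of 3 untreated embryos, and all 4 libraries carry the same batch label. Embryos of both sexes were used without sexing, so the sex makeup of a pool is not stated. Tie2Cre limits the model, since it is known to act also in blood cells and in the cushion mesenchyme that forms from endocardium.

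Matrix Gla protein is a small vitamin K dependent protein whose glutamate residues are carboxylated before secretion. It is best known as an inhibitor of calcification in arteries and cartilage, and it binds bone morphogenetic proteins, so that loss of Mgp in mice leads to arterial calcification and to malformed vessels. Osteopontin is an acidic phosphoprotein that binds integrins and Cd44, restrains crystal growth in mineralised tissue and is secreted by macrophages in injured or remodelling tissue. Ets1 is a transcription factor of endothelial and lymphoid cells whose family binds DNA at a GGAA core.

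In the mm10 annotation Mgp (ENSMUSG00000030218) lies on the minus strand at chr6:136872435-136875823 and Spp1 (ENSMUSG00000029304) on the plus strand at chr5:104435118-104441050. Spp1 closes a stretch of 270 kb on chromosome 5 that also holds its relatives Ibsp, Dmp1, Dspp and Mepe. Of the 2 members, 1 had an entry in the RefSeq promoter table (GRCm38.p6). Spp1 has 2 entries there, and the 250 bases before the more upstream start, chr5:104434861-104435110 on the plus strand, are printed because the ETS core can be read in them directly. Capitals mark GGAA on either strand (read as TTCC on the other), 4 matches that do not overlap.
Spp1: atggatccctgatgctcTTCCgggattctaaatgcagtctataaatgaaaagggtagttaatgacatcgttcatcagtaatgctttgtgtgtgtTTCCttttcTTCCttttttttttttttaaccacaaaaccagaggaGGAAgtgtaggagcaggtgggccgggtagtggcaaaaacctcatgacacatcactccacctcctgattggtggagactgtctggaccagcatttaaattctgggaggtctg
These 4 letters are common: 30698 of 32851 such windows (93.4%) hold at least 1 match, with a median of 3. The window before the other Spp1 start (chr5:104435942-104436191) holds 2 matches. A match describes the sequence and is neither a binding site nor a cause of any value given here.

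The matrices hold unique molecule counts (UMIs) for 12641 and 7949 barcodes in control replicates 1 and 2 and for 10010 and 14951 barcodes in eKO replicates 1 and 2. Values for the 4 libraries are given in that order throughout. Total counts were 124140739, 76931208, 95131419 and 102872196 UMIs. After filtering, 38003 cells remained, with medians of 8710, 8582, 8220 and 5312.5 UMIs per cell, so eKO replicate 2 was the shallowest library per cell. The libraries also differ in sex. Xist, the RNA of the inactive X chromosome, had 9, 19448, 20197 and 37377 UMIs, and the Y-linked gene Ddx3y had 5634, 1848, 1925 and 121 UMIs. Control replicate 1 was thus nearly all male and eKO replicate 2 nearly all female, and sex cannot be separated from single libraries. Libraries shared between 19 and 47 barcodes by pair, at most 0.44% of the smaller library.

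Cells were sorted into 8 classes by marker gates that contain neither member and not Ets1, and 31327 cells received a class. The main classes were rich in their own markers. Fabp4 averaged 7319 CPM (UMIs scaled to the class total of the library, SD 1311, n = 4 libraries) in coronary endothelium. Cdh11, an endocardial gate gene, averaged 1000.4 CPM (SD 152) in endocardium, Col3a1 1922 CPM (SD 190) in mesenchyme, and Tyrobp 2203 CPM (SD 167) in leukocytes. Cdh11 was near its endocardial level in epicardium too (994 CPM, SD 77.5). Npr3, another endocardial gate gene, averaged 719 CPM (SD 88.6) in endocardium and 125 CPM (SD 17.1) in epicardium. Actc1 averaged 9849 CPM (SD 581) in cardiomyocytes, the class that serves below as the one that should lack both members. Epicardium and mural cells shared markers with mesenchyme: the mesenchymal gene Col1a1 averaged 1833 CPM (SD 326) in epicardium, above its own Upk3b at 1054 CPM (SD 94.1), and Col3a1 averaged 1220 CPM (SD 88.8) in mural cells.

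Ets1 RNA was lower in the endothelial classes of the eKO libraries. In coronary endothelium Ets1 (ENSMUSG00000032035, chr9:32636221-32757820, plus strand) measured 369, 322, 180 and 127 CPM, and it fell by 1.09 on the log2 scale (SE 0.18, edgeR adjusted p = 0.0192). In endocardium it measured 283, 267, 121 and 94.5 CPM, and it fell by 1.30 (SE 0.14, edgeR adjusted p = 0.00125). The eKO libraries lay below both controls in these 2 classes. Mesenchyme held 94.8, 87.4, 61.4 and 57.6 CPM of Ets1, a log2 change of -0.52 (SE 0.12) that did not pass the edgeR test (adjusted p = 0.195). Leukocytes held 17.2, 13.9, 16.2 and 13.2 CPM, and the log2 change of -0.08 (SE 0.40) did not pass either (edgeR adjusted p = 0.997). Cardiomyocytes held 6.57, 6.26, 8.90 and 9.06 CPM. The floxed exons are not stated for these libraries and the 3′ tags may lie outside them, so these values show the amount of Ets1 RNA and check no deletion.

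Mgp RNA was abundant in epicardium, mesenchyme, mural cells and endocardium, and it was low in coronary endothelium. Mesenchyme held the largest share: 52.8, 54.3, 51.8 and 39.3% of each library's 27071, 26517, 27431 and 23805 Mgp UMIs. Endocardium held 16.9, 12.1, 22.2 and 33.1%, a larger share in both eKO libraries than in either control. Coronary endothelium held 0.211, 0.0641, 0.314 and 0.437% of them, and 18.6, 19.1, 16.2 and 17.4% lay in cells without a class. Such shares also depend on the cells recovered per class. Endocardium was 10.7, 12.5, 11.5 and 14.7% of the cells kept, and mesenchyme 15.7, 23.8, 17.2 and 13.9%.

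The order of the classes by Mgp level was similar at its top in both groups. Among controls epicardium (mean 1652 CPM) came first, followed by mural cells (1322 CPM) and mesenchyme (1189 CPM), whose ranges overlap. Endocardium (477 CPM) came next. Cardiomyocytes (12.8 CPM), coronary endothelium (7.95 CPM) and leukocytes (4.45 CPM) closed the order, the last 2 with overlapping ranges. Among eKO libraries the order was epicardium (1475 CPM), mesenchyme (1301 CPM), mural cells (894 CPM) and endocardium (835 CPM), and here mural cells and endocardium overlap. Coronary endothelium (22.8 CPM) then stood above cardiomyocytes (10.7 CPM) and leukocytes (10.03 CPM), whose ranges overlap. Erythroid barcodes lay between endocardium and these low classes, at 118 CPM in controls and 221 CPM in eKO libraries, but on few UMIs (the eKO libraries had 48 and 3).

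**Figure D1:**
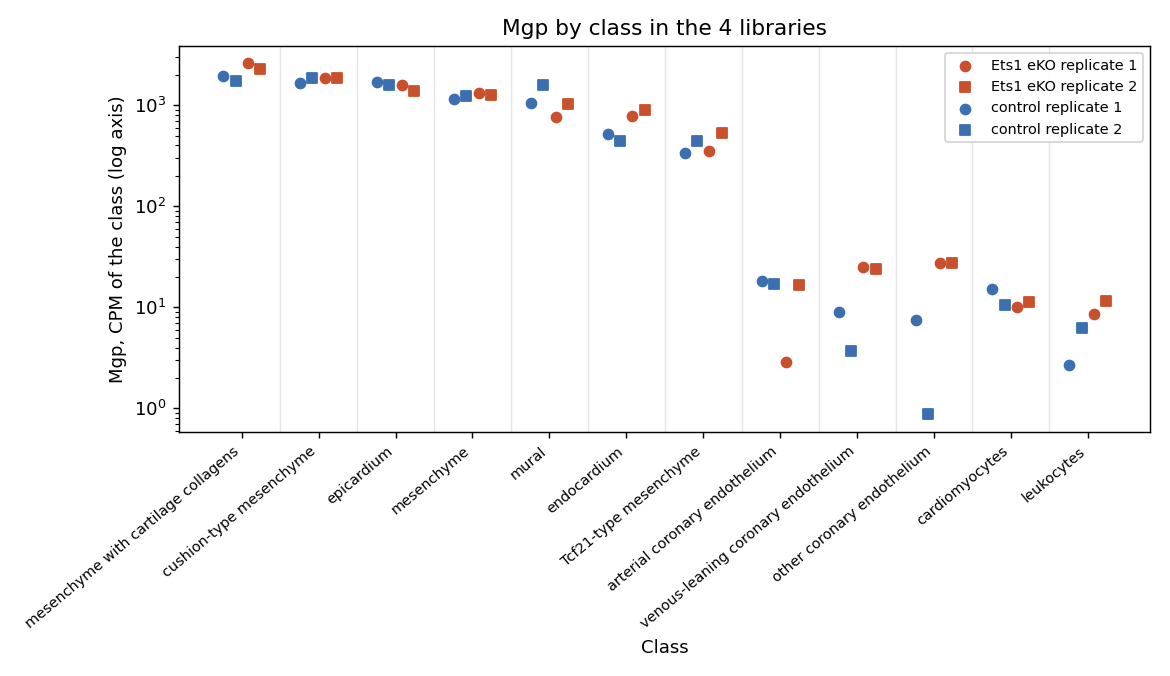
Mgp level (CPM of the class, log axis) in each class and subclass, one point per library, controls in blue and eKO libraries in orange. Endocardium shows both eKO points (782 and 889 CPM) above both control points (514 and 439 CPM), and coronary subclasses lie far lower.

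In endocardium Mgp measured 514, 439, 782 and 889 CPM. Both eKO libraries lay above both controls, with a fitted log2 change of 0.87 (SE 0.15), a 1.83-fold difference. No single cell carried the level, since the fullest cell held at most 1.22% of a library's endocardial Mgp UMIs. Cells with at least 10 Mgp UMIs were 11.7, 11.3, 21.3 and 11.4% of the 1105, 855, 986 and 1816 endocardial cells, so in this unthinned share the shallower eKO replicate 2 lay between the controls. Among cells thinned to 2000 UMIs, the share with at least 1 Mgp UMI was 54.2% (exact Clopper-Pearson 95% interval 51.2 to 57.3) and 45.8% (42.4 to 49.3) in controls. It was 65.5% (62.4 to 68.5) and 71.8% (69.6 to 74.0) in eKO libraries. These intervals are over cells within a library and do not test the groups. Thinning left out 54, 37, 41 and 136 shallower endocardial cells. Without thinning the shares were 78.1, 71.6, 84.0 and 82.7%, at median depths of 6835, 7296, 6863 and 4187 UMIs.

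Cardiomyocytes give the background of these shares. At 2000 UMIs 2.68, 2.34, 2.12 and 2.08% of cardiomyocytes had an Mgp UMI, and without thinning 11.0, 9.37, 8.29 and 7.08%, at median depths of 11389, 12237, 11829 and 7392 UMIs. The endocardial share was above this background in every library. Intervals and limits given for shares cover counting error only.

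Free RNA from mesenchyme would carry Mgp and the mesenchymal collagen Col1a1 in 1 ratio into every class. In mesenchyme there were 107, 122, 108 and 123 Mgp UMIs per 100 Col1a1 UMIs, and in endocardium 12021, 13896, 15613 and 26300. The endocardial ratio was thus 113, 114, 145 and 213 times that of mesenchyme. Col1a1 itself, at 4.28, 3.16, 5.01 and 3.38 CPM in endocardium, was near its level in cardiomyocytes (mean 2.82 CPM). The ratio uses 1 reference gene, and its size depends on that gene. Col3a1, another mesenchymal collagen, averaged 1922 CPM in mesenchyme and was still at 213, 219, 229 and 265 CPM in endocardium. Against Col3a1 the excess of the endocardial Mgp ratio is thus far smaller. The source of the endocardial RNA was not tested.

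Lumican (Lum), a small proteoglycan of connective tissue, gave another picture in the knockout. In mesenchyme Mgp measured 281, 294, 345 and 254 UMIs per 100 Lum UMIs, and in endocardium 7251, 9988, 1996 and 2369. The lower endocardial ratio in eKO libraries went with a rise of Lum in endocardium itself, from 7.09 and 4.396 CPM to 39.2 and 37.5 CPM (log2 change 2.77, edgeR adjusted p = 0.000119). Col1a2, a fibrillar collagen chain, measured 26.2 and 23.4 CPM in control endocardium and 153 and 119 CPM in eKO endocardium, a log2 rise of 2.51 (edgeR adjusted p = 2.69e-05). The 8 mesenchyme markers together summed to 470, 438, 673 and 647 CPM in endocardium, led by Col3a1 (213, 219, 229 and 265 CPM), and none of the 8 was at 0 in any library. Of the 7 that were tested there, 3 rose (Lum, Col1a2 and Dcn) and 0 fell by edgeR, where 1.22% of all 13230 genes rose and 1.65% fell. Col1a1 had a log2 change of 0.21 (SE 0.32, edgeR adjusted p = 0.753). The gate genes of the class differed as well: the 5 endocardium markers summed to 3432, 3210, 2901 and 2605 CPM in endocardium, and the 4 coronary markers to 74.6, 75.7, 114 and 147.6 CPM. In each sum the eKO libraries lay on 1 side of both controls. The part of these markers and of the makeup of the class in the Mgp difference was not tested.

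**Figure D2:**
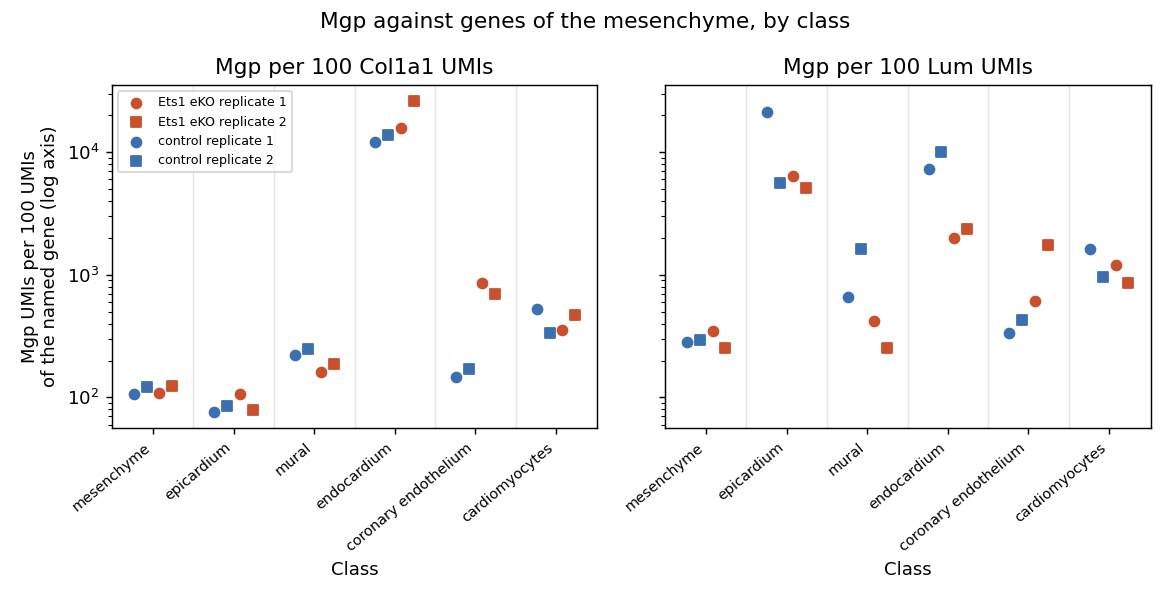
Mgp UMIs per 100 UMIs of Col1a1 (left) or Lum (right) by class on a log axis, one point per library. Against Col1a1 endocardium lies at 12021 to 26300 where mesenchyme lies at 107 to 123, and against Lum the 2 eKO points of endocardium (1996 and 2369) lie below its control points.

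Coronary endothelium carried little Mgp. It measured 10.5, 5.43, 22.2 and 23.4 CPM, from 57, 17, 86 and 104 UMIs. Both eKO libraries lay above both controls, and the fitted log2 change was 1.52 (SE 0.26), or 1.20 to 2.14 over 12 alternatives. The control values lie at or below the level in cardiomyocytes (15.1, 10.5, 10.1 and 11.2 CPM), and the eKO values lie above it. Few cells carried these UMIs: 31, 11, 27 and 48 cells, with 22.8, 29.4, 18.6 and 8.65% of the UMIs in the fullest cell. At 2000 UMIs per cell the share with an Mgp UMI was 1.82% (0.734 to 3.71), 0.465% (0.0118 to 2.56), 2.24% (0.907 to 4.57) and 4.08% (2.58 to 6.11). The first 3 of these shares are not above the cardiomyocyte background in a way their intervals resolve, and the share in eKO replicate 2 is. Without thinning they were 7.51, 4.76, 7.92 and 8.14% at median depths of 11044, 11198, 9404 and 5801 UMIs.

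Against Col1a1 the coronary endothelium of the 2 groups differed. There were 146 and 170 Mgp UMIs per 100 Col1a1 UMIs in control coronary endothelium, which is 1.37 and 1.40 times the mesenchymal ratio. In eKO coronary endothelium there were 860 and 693, which is 7.97 and 5.62 times that ratio. These ratios rest on 39, 10, 10 and 15 Col1a1 UMIs and on 1 reference gene, and the source of the coronary RNA was not tested.

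Markers of 3 classes rich in Mgp were read in coronary endothelium beside it. The 8 mesenchyme markers summed to 43.9, 26.8, 29.1 and 31.8 CPM in coronary endothelium, with Col3a1 at 9.37, 8.31, 7.99 and 12.4 CPM, and 1 of the 8 was at 0 in control replicate 2 and in eKO replicate 1. The 5 endocardium markers summed to 170, 177, 166 and 130 CPM there, and none was at 0. The 6 epicardium markers summed to 114.3, 102, 118 and 114.4 CPM, with both eKO libraries slightly above both controls. Wt1 held most of that sum (mean 109 CPM, SD 6.46), and 4, 3, 2 and 0 of the 6 were at 0, so more epicardium markers were detected in the eKO libraries. Within the eKO libraries, the 31 coronary cells with at least 2 Mgp UMIs had a median of 21 UMIs of the 4 coronary markers, against 55.5 in the other 900 cells, at median depths of 6537 and 6898 UMIs. In controls the 11 such cells had a median of 85, against 67 in the other 633, but at depths of 25664 and 10949 UMIs, so these 2 counts are not comparable. Median mesenchyme marker UMIs were 1 against 0 in eKO libraries and 6 against 0 in controls, and median endocardium marker UMIs 2 against 1 and 5 against 1. The part of cells that stand between classes in the coronary value was not tested.

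Within coronary endothelium the eKO level was higher in venous-leaning and other cells, while no direction was resolved in arterial cells. In arterial cells (gated on Gja5, Gja4, Bmx, Sema3g, Unc5b and Hey1) Mgp measured 18.3, 17.1, 2.89 and 16.6 CPM, the eKO value of 2.89 resting on 2 UMIs. The log2 change was -0.65 (SE 0.53), and it was -2.49 without eKO replicate 2 and 0.00 without eKO replicate 1, so 1 library decides it. In venous-leaning cells (Nr2f2, Dab2, Ephb4, Aplnr and Flt4) Mgp measured 8.90, 3.71, 25.2 and 23.9 CPM, a log2 change of 1.85 (SE 0.33) that rests on 24 and 5 control UMIs and was 2.75 without control replicate 1 and 0.89 under a stricter gate. In the other coronary cells it measured 7.51, 0.879, 27.5 and 27.3 CPM, a log2 change of 2.60 (SE 0.46) that rests on 12 and 1 control UMIs and was 4.90 without control replicate 1. Both eKO libraries lay above both controls in the venous-leaning and other cells, and below both in arterial cells. Cardiomyocytes, the background class, held 15.1, 10.5, 10.1 and 11.2 CPM.

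In mesenchyme Mgp measured 1155, 1224, 1334 and 1268 CPM, a log2 change of 0.22 (SE 0.16). The groups do not overlap, but the difference is of the order of the spread between replicates. Mgp also differed between the types of mesenchyme. Cells with cartilage collagens (at least 2 of Col2a1, Col9a1, Col9a3 and Acan) held 1960, 1739, 2594 and 2268 CPM, a log2 change of 0.48 (SE 0.17). Cushion-type cells, marked by Sox9, Hapln1, Papss2 and Meox1, held 1645, 1872, 1869 and 1873 CPM (log2 change 0.15, SE 0.18). Tcf21-type cells, the fibroblast-like mesenchyme marked by Tcf21, Pdgfra, Dpt and Col13a1, held 337, 441, 355 and 538 CPM (log2 change 0.27, SE 0.21, but -0.0569 without eKO replicate 2). Mgp was thus lower in Tcf21-type cells than in the other 2 types in all 4 libraries. At 2000 UMIs 61.2, 65.9, 61.8 and 60.9% of mesenchymal cells had an Mgp UMI.

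Epicardium and mural cells did not share the higher endocardial level of the eKO libraries. Epicardium held 1711, 1593, 1574 and 1377 CPM (log2 change -0.09, SE 0.17, but 0.0173 without eKO replicate 2), and mural cells, marked by Rgs5 and Tagln among others, held 1061, 1584, 759 and 1029 CPM (log2 change -0.48, SE 0.25). The eKO libraries lay below both controls in each, by less than the spread between replicates in mural cells, and the difference from endocardium was not tested. In leukocytes Mgp measured 2.71, 6.18, 8.51 and 11.6 CPM from 3, 4, 11 and 14 UMIs, too few for the fit. In cardiomyocytes the fitted log2 change of Mgp was -0.16 (SE 0.19), and its direction turns (0.16 without control replicate 1, 0.54 with doublets kept).

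The contrast between coronary endothelium and endocardium did not enter the choice of Mgp and was tested with the library as a block. Mgp was lower in coronary endothelium by a log2 difference of -5.25 (SE 0.11, edgeR adjusted p = 4.88e-13), in 4 of 4 libraries. Most genes differ between these classes: 8410 of 12530 genes (67.1%) passed the same test, 4096 higher and 4314 lower in coronary endothelium, or 3103 and 5676 with scaling by total counts alone. Between arterial and other coronary endothelium 1677 of 8537 genes (19.6%) passed, and Mgp did not (log2 difference -0.11, SE 0.39, edgeR adjusted p = 0.893). Its direction in this contrast turns with the setting, from -0.80 to 0.56 over 10 alternatives, with adjusted p-values from 0.151 to 0.949. Ets1 itself was lower in arterial than in other coronary cells (log2 difference -0.35, SE 0.08, edgeR adjusted p = 0.00175). Spp1 was below the count filter in both contrasts.

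The 5 genes whose levels were most like those of Mgp over 8 classes in 4 libraries (32 points, 11529 genes with a mean of at least 5 CPM) were Mfap2 (Pearson r = 0.958), Nrk (0.955), Cdh11 (0.951), Nkain4 (0.95) and Ptgis (0.929). Mfap2 encodes a microfibril protein, Cdh11 a cadherin of mesenchymal cells and Ptgis prostacyclin synthase. Like Mgp, Mfap2 was high in mesenchyme (529 CPM, SD 45.7) and epicardium (390.5 CPM, SD 48.9), lower in endocardium (161 CPM, SD 21.1) and low in coronary endothelium (11.7 CPM, SD 5.59). Cdh11 is an endocardial gate gene, which raises its likeness to any gene of endocardium. These correlations describe the data, since the points share libraries and their cells were sorted on markers.

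Spp1 RNA was found in leukocytes and was scarce elsewhere. The libraries held 286, 84, 839 and 655 Spp1 UMIs, of which 77.3, 61.9, 91.3 and 87.8% lay in leukocytes, although leukocytes were 1.74, 1.56, 2.62 and 2.71% of the cells kept. Among controls leukocytes (mean 140.2 CPM) stood first, and among eKO libraries too (534 CPM). Erythroid barcodes came second among controls at a mean of 17.7 CPM, which rests on 3 UMIs in control replicate 1 (35.5 CPM) and 0 in the other 3 libraries. Mural cells held 10.8, 2.72, 10.6 and 18.8 CPM, from 12, 4, 8 and 12 UMIs. Coronary endothelium held 3, 6, 5 and 15 Spp1 UMIs, endocardium 0, 1, 6 and 0, and mesenchyme 2, 2, 7 and 3. Among these low classes the order is not resolved by the counts. The 0 of endocardium in control replicate 1 allows up to 0.271% of its 1105 cells with an Spp1 UMI (3 counts), and that of eKO replicate 2 up to 0.165% of its 1816.

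**Figure D3:**
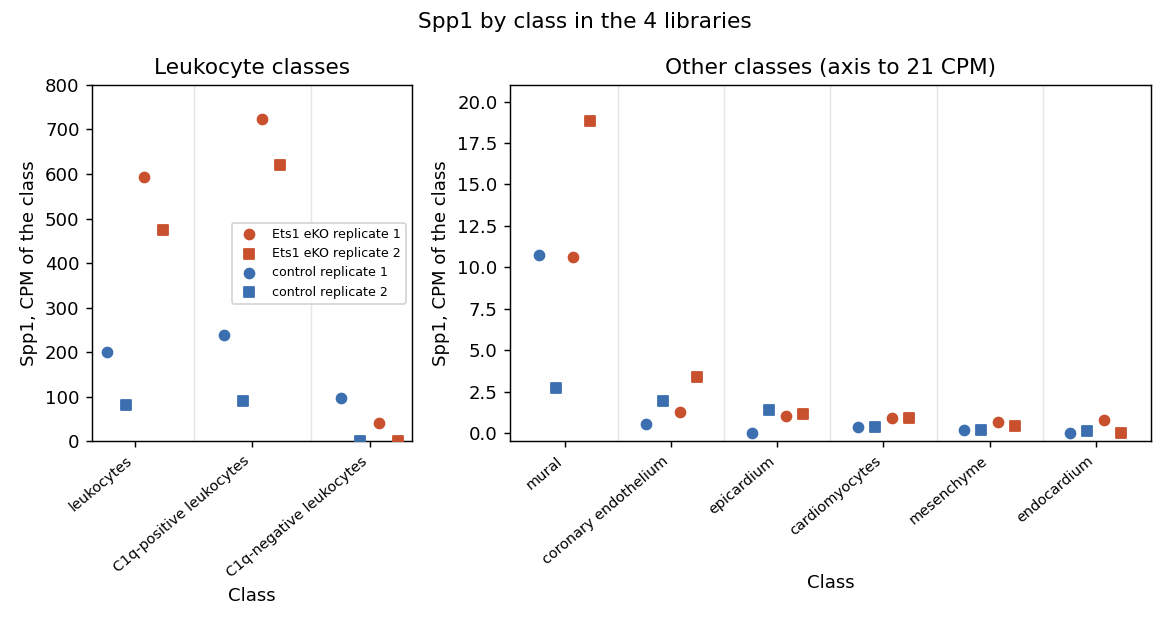
Spp1 level (CPM of the class) in leukocytes and their C1q-positive and C1q-negative cells (left) and in 6 other classes (right, axis to 21 CPM, without erythroid barcodes), one point per library. Leukocytes and their C1q-positive cells show both eKO points above both control points, and mural cells show overlapping groups.

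In leukocytes Spp1 measured 200, 80.4, 593 and 475 CPM. Both eKO libraries lay above both controls, with a fitted log2 change of 1.91 (SE 0.29), a 3.76-fold difference that rests on 221, 52, 766 and 575 UMIs. Leaving out 1 library gave log2 changes from 1.46 (without control replicate 2) to 2.74 (without control replicate 1). The Spp1 UMIs lie in 10, 9, 19 and 33 of the 179, 106, 224 and 334 leukocytes. The C1q-positive leukocytes, which carry the complement genes of resident macrophages, held nearly all of the Spp1 RNA: 238, 90.9, 724 and 620 CPM (log2 change 2.02, SE 0.27). This log2 change ranged from 1.52 to 3.17 over 13 alternatives. C1q-negative leukocytes held 29, 0, 10 and 0 Spp1 UMIs. With 20 and 90 C1q-negative cells in the libraries at 0, Spp1 was not detectable there at this depth.

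A few cells carried most of the Spp1 RNA. Cells with at least 10 Spp1 UMIs numbered 3, 2, 8 and 6, or 1.68, 1.89, 3.57 and 1.80% of the leukocytes. This unthinned share did not separate the groups. Leukocytes had median depths of 5866, 6368, 5652.5 and 3403.5 UMIs, so the cut asks for a higher Spp1 level in eKO replicate 2. These 19 cells held 95.02, 71.2, 95.04 and 88% of the leukocyte Spp1 UMIs. The fullest cell of each library held 154, 24, 187 and 269 UMIs, or 69.7, 46.2, 24.4 and 46.8%. Without that cell the level was 61.4, 43.9, 450 and 254 CPM, so both eKO libraries still lay above both controls. The log2 ratio of the group means was then 2.74, which is not a fitted value.

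The share of leukocytes with an Spp1 UMI did not separate the groups. At 2000 UMIs it was 4.97% (2.17 to 9.56) and 6.82% (2.54 to 14.3) in controls. In eKO libraries it was 5.41% (2.62 to 9.72) and 8.24% (5.17 to 12.3), so the values of the groups overlap. Without thinning it was 5.59, 8.49, 8.48 and 9.88%, at median depths of 5866, 6368, 5652.5 and 3403.5 UMIs. Cardiomyocytes had 0.0458, 0.0442, 0.0614 and 0.165% at 2000 UMIs and 0.241, 0.472, 1.003 and 0.494% without thinning, at 11389, 12237, 11829 and 7392 UMIs. The leukocyte share was above this background in every library.

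**Figure D4:**
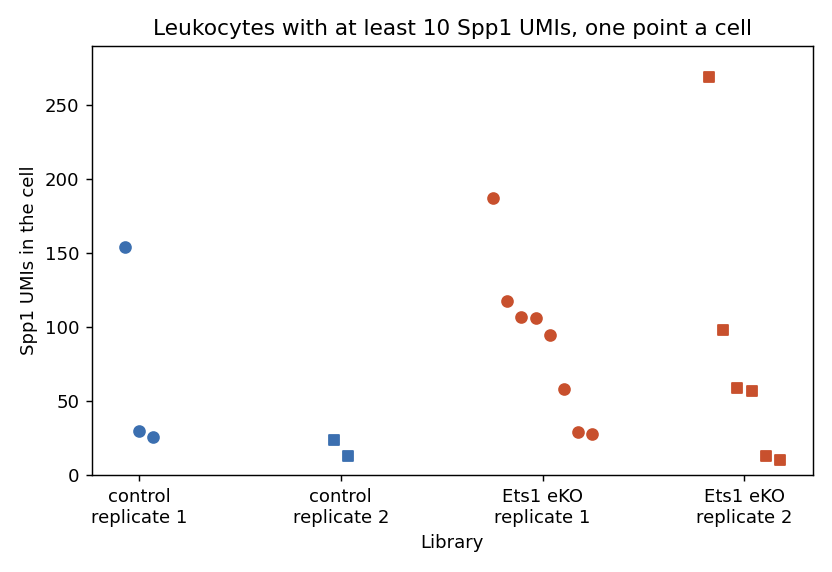
Spp1 UMIs in each leukocyte with at least 10 of them, one point per cell, by library. There are 3, 2, 8 and 6 such cells among 179, 106, 224 and 334 leukocytes (1.68, 1.89, 3.57 and 1.80%), with at most 269 UMIs in a cell.

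The 19 cells were compared with the other 824 leukocytes as a description, since they were chosen on Spp1. Nearly all of the 19 were C1q-positive, whereas the 824 include nearly all of the 208 C1q-negative leukocytes. No comparison within C1q-positive cells was made, so the part of this makeup in the differences was not tested. Gpnmb, a lysosomal membrane glycoprotein of phagocytes, measured 833 CPM in them against 28.3 CPM in the rest. Fabp5, a fatty acid binding protein, measured 2551 against 331 CPM, and Lgals3, which encodes galectin-3, 3072 against 308 CPM. A few cells carry much of both: 1 cell of control replicate 1 held 168 of the 354 Lgals3 UMIs, and without that library Lgals3 was 1985 CPM. For Fabp5, 3 cells held 66, 65 and 64 of the 294 UMIs. Gpnmb was uneven too, with 29, 17 and 14 of its 96 UMIs in 3 cells. Cd9, a tetraspanin, measured 1475 against 137 CPM and Lpl, lipoprotein lipase, 703 against 117 CPM. The lysosomal genes Cd63 (1137 against 298 CPM), Ctsd (1996 against 997 CPM) and Ctsb (3141 against 1650 CPM) were also higher in the 19 cells. Trem2, a lipid-sensing receptor, measured 677 against 373 CPM, and Apoe 16973 against 13151 CPM. Mrc1, the mannose receptor of many resident macrophages, was lower in the 19 cells, at 113 against 611 CPM (66.4 without control replicate 2 and 171 without eKO replicate 1), and was picked after its values were seen. Pooled CPM of all 10 listed phagocyte genes was higher in the 19 cells. The 3 C1q genes differed less: C1qa measured 1440.5 against 1486 CPM, C1qb 2664 against 2099 CPM and C1qc 1423 against 1340 CPM. The direction of C1qa turns without control replicate 1 (1728 against 1560 CPM).

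In cardiomyocytes Spp1 measured 0.332, 0.387, 0.894 and 0.913 CPM, from 19, 12, 39 and 37 UMIs, with a log2 change of 1.46 (SE 0.31). Both eKO libraries lay above both controls, as in leukocytes. Per 100 UMIs of the leukocyte gene Tyrobp, leukocytes held 10.0, 3.35, 26.3 and 21.9 Spp1 UMIs, and cardiomyocytes held 63.3, 120, 115 and 56.1. The cardiomyocyte ratio was above that of leukocytes in every library, but it rests on 30, 10, 34 and 66 Tyrobp UMIs. Leukocyte markers in cardiomyocytes were higher in both eKO libraries too: the 6 leukocyte markers summed to 2.26, 1.74, 2.93 and 5.43 CPM (led by Fcer1g, with 1 of 6 at 0 in control replicate 2), and the 3 C1q genes to 0.822, 0.581, 1.63 and 2.44 CPM. The part of free leukocyte RNA and of leukocyte fragments in the cardiomyocyte value was not tested.

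The genes most like Spp1 over the same 32 points were Itgal (r = 0.932), Adap2 (0.906), Lrrc25 (0.902), Ms4a6d (0.899) and P2rx7 (0.899). Itgal encodes an integrin chain of leukocytes and P2rx7 an ATP-gated channel of macrophages. Each is nearly restricted to the leukocyte class in mean level, with Itgal at 119 CPM (SD 7.92) there and at 0.785 CPM or less in the other classes except erythroid barcodes (2.96 CPM).

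Leukocyte samples also differed in genes outside the fixed lists. By edgeR 11 of 8858 genes rose (0.124%) and 0 fell (0.0%), with 437 genes at an unadjusted p below 0.05, and DESeq2 called 5 higher and 0 lower. The 11 include Spp1, which was chosen on this contrast, so its call is no test and is not read as a result. The other 10 were Camp, Ngp, Lcn2, Ltf, S100a8, S100a9, Stfa1, Stfa3, Cstdc4 and Cstdc5, named after their values were seen. Camp, Ngp, Lcn2 and Ltf encode granule proteins of neutrophils, and S100a8 and S100a9 the subunits of calprotectin. Camp measured 0.905, 0, 194 and 128 CPM (log2 change 7.90, edgeR adjusted p = 2.76e-07), and S100a8 measured 111, 10.8, 884 and 459 CPM (log2 change 3.36, edgeR adjusted p = 0.00366). Camp rests on 1, 0, 251 and 155 UMIs, of which C1q-negative leukocytes held 0, 0, 250 and 155. For S100a8 they held 122, 6, 1137 and 556 of 123, 7, 1143 and 556 UMIs. Spp1 lay mostly in the C1q-positive cells instead. In the 19 cells rich in Spp1, Camp, Ngp, Lcn2, Ltf, S100a8 and S100a9 had 0 UMIs. All C1q-positive leukocytes together held only 1, 0, 1 and 0 UMIs of Camp and 1, 1, 6 and 0 of S100a8. The 0 counts are thus not particular to the 19 cells. The number of leukocyte genes called was 62 without control replicate 1, 41 without control replicate 2, 53 without eKO replicate 1 and 70 without eKO replicate 2.

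Genes that act with the 2 members were read from 8 lists of 93 genes, tested between eKO and control libraries. In coronary endothelium 60 of 11264 genes rose (0.533%) and 29 fell (0.257%) by edgeR, and of the 56 list genes tested 2 rose and 0 fell. In endocardium 162 of 13230 genes rose (1.22%) and 218 fell (1.65%), and of 65 list genes 4 rose and 3 fell. In mesenchyme 1 of 14376 genes rose (0.00696%) and 5 fell (0.0348%), and 0 of 73 list genes passed. That mesenchymal test is by edgeR, with 1440 of all genes at an unadjusted p below 0.05 and 60 called by DESeq2. In leukocytes 0 of 48 list genes passed by edgeR, beside the 437 genes at an unadjusted p below 0.05 and 5 by DESeq2 given above. With scaling by total counts alone the calls were 52 higher and 52 lower in coronary endothelium, 155 and 340 in endocardium, and 2 and 41 in mesenchyme.

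These counts of called genes depend on single libraries. The 89 genes of coronary endothelium became 150 without control replicate 1, 217 without eKO replicate 2 and 598 without eKO replicate 1. The 380 of endocardium became 753 without eKO replicate 2 and 2095 without eKO replicate 1. The 6 of mesenchyme (Penk, Prr16, Ntrk3, Lhfpl3, Gm3331 and Gm32647, named after their values were seen) became 244 and 59 without control replicate 1 or 2 and 609 and 421 without eKO replicate 1 or 2.

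Gamma-carboxylation makes Gla proteins such as matrix Gla protein calcium-binding. Of the 11 genes of this list 7 were tested in coronary endothelium, 8 in endocardium, 8 in mesenchyme and 7 in leukocytes. Of these 1 passed: Gas6, a Gla-domain ligand of the receptors Axl and Mertk, rose in endocardium, where 1.22% of all genes rose by edgeR. It measured 23.6, 28.9, 58.7 and 63.0 CPM there (log2 change 1.28, SE 0.15, edgeR adjusted p = 0.00197). In coronary endothelium Gas6 measured 9.004, 10.9, 20.4 and 17.1 CPM, with a log2 change of 1.02 that did not pass (edgeR adjusted p = 0.0678). The carboxylase Ggcx and the vitamin K reductase Vkorc1 passed in no class. In endocardium Ggcx measured 15.7, 11.1, 15.2 and 15.2 CPM and Vkorc1 92.3, 76.4, 97.0 and 128 CPM. Calu, calumenin, which binds the carboxylase, was the most abundant member in coronary endothelium (198 CPM, SD 11.6), endocardium (204 CPM, SD 21.5) and mesenchyme (277 CPM, SD 17.8), and Gas6 was in leukocytes (125 CPM, SD 28.6). The list's median log2 change was 0.08 in coronary endothelium, -0.12 in endocardium, -0.07 in mesenchyme and -0.25 in leukocytes, where the medians of all genes tested were 0.01, 0.01, 0.01 and 0.01.

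Matrix Gla protein binds bone morphogenetic proteins, whose endothelial receptor complex contains ALK1 (Acvrl1) and endoglin (Eng). Of the 17 genes of this list 14 were tested in coronary endothelium, 15 in endocardium, 15 in mesenchyme and 12 in leukocytes. Of these 2 fell, both in endocardium, where 1.65% of all genes fell by edgeR. Acvrl1 measured 8.22, 9.07, 3.08 and 2.70 CPM there (log2 change -1.52, SE 0.27, edgeR adjusted p = 0.0158). Smad6, an inhibitory Smad, measured 137, 126, 72.6 and 60.3 CPM (log2 change -0.93, SE 0.13, edgeR adjusted p = 0.0046). Both fell in 2 of 2 eKO libraries. The ligands did not pass: endocardial Bmp6 measured 86.5, 95.5, 58.7 and 62.2 CPM (edgeR adjusted p = 0.058), and Bmp2 did not either (log2 change -0.61, edgeR adjusted p = 0.286). The most abundant member was Id3, a target of Smad signalling, at 557 CPM (SD 45.7) in endocardium, 463 CPM (SD 61.3) in coronary endothelium, 941 CPM (SD 107) in mesenchyme and 330.3 CPM (SD 74.1) in leukocytes. The list's median was -0.34 in endocardium, -0.09 in coronary endothelium, -0.16 in mesenchyme and -0.08 in leukocytes.

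The relatives of osteopontin were nearly undetected in the 4 tested classes. Ibsp, Dmp1, Dspp and Mepe, the integrin-binding phosphoproteins of bone and teeth encoded beside Spp1, did not reach the count filter in any of the 4 tested classes. All 4 had 0 UMIs in endocardium and in leukocytes, and 3 of 4 had 0 UMIs in coronary endothelium and in mesenchyme. The most abundant of them averaged 0.121 CPM (Dspp in coronary endothelium).

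Osteopontin receptors were present in each class without a call. Of 11 genes 7 were tested in coronary endothelium, 8 in endocardium, 10 in mesenchyme and 7 in leukocytes, with list medians of -0.07, 0.17, 0.12 and 0.16. The integrin chain Itgb1 was the most abundant in coronary endothelium (809 CPM, SD 129), endocardium (589 CPM, SD 70.1) and mesenchyme (569 CPM, SD 69.0). In leukocytes it was Cd44, at 615, 482, 686 and 532 CPM. Itgav, the chain that pairs to bind the RGD motif of osteopontin, measured 75.5, 70.6, 52.3 and 47.4 CPM in endocardium (log2 change -0.49, edgeR adjusted p = 0.0681). Itga4 measured 29.7, 35.2, 55.1 and 55.8 CPM in mesenchyme (log2 change 0.86, edgeR adjusted p = 0.108).

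Of the 6 enzymes that crosslink, cleave or dephosphorylate osteopontin, 1 was tested in coronary endothelium, 1 in endocardium, 2 in mesenchyme and 2 in leukocytes, and none passed by edgeR. Tgm2, the transglutaminase that crosslinks it, was the most abundant member in all 4 classes. In leukocytes Tgm2 measured 70.6, 72.7, 170 and 137 CPM, with both eKO libraries above both controls and a log2 change of 1.12 (SE 0.22) that did not pass (edgeR adjusted p = 0.0659). In endocardium it measured 36.1, 35.6, 39.4 and 39.2 CPM. Acp5, the phosphatase that removes phosphate from osteopontin, measured 33.5, 38.6, 51.8 and 44.6 CPM in leukocytes. The list's medians were 0.14, 0.19, 0.25 and 0.79 in coronary endothelium, endocardium, mesenchyme and leukocytes.

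Of 13 regulators of mineralisation 3 were tested in coronary endothelium, 6 in endocardium, 9 in mesenchyme and 5 in leukocytes, and none passed by edgeR. Their medians were -0.16, -0.01, -0.09 and -0.28. The phosphate transporter Slc20a2 was the most abundant in coronary endothelium (29.1 CPM, SD 6.98) and endocardium (32.5 CPM, SD 1.97), and Slc20a1 in leukocytes (25.2 CPM, SD 6.97). Sox9, the cartilage regulator that also marks cushion mesenchyme and is a gate gene of the cushion type, led in mesenchyme at 353, 394, 317 and 269 CPM.

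Vessel wall matrix genes, the largest of the 8 lists, held 6 of the 9 calls in list genes. Of 21 genes 17 were tested in coronary endothelium, where 2 rose and 0 fell by edgeR (0.533% and 0.257% of all genes), and 20 in endocardium, where 3 rose and 1 fell (1.22% and 1.65% of all genes). All 21 were tested in mesenchyme and 5 in leukocytes, and none passed by edgeR there. Medians were 0.08, 0.00, -0.09 and 0.30 in the 4 classes. In coronary endothelium Mfap5, a microfibril glycoprotein, rose from 8.64 and 6.71 CPM to 27.6 and 25.5 CPM (log2 change 1.83, SE 0.21, edgeR adjusted p = 0.00331). Fbln2, a fibulin, rose there from 19.7 and 17.3 CPM to 38.9 and 39.9 CPM (log2 change 1.16, SE 0.17, edgeR adjusted p = 0.0109). Both rose in 2 of 2 eKO libraries, as the coronary level of Mgp was higher in both. The most abundant members were Sparc in coronary endothelium (2431 CPM, SD 191) and mesenchyme (1594 CPM, SD 102), Fn1, fibronectin, in endocardium (1347 CPM, SD 98.3) and Thbs1 in leukocytes (119 CPM, SD 30.3).

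In endocardium Mfap5 rose as well, from 167 and 140 CPM to 298 and 303 CPM (log2 change 1.03, SE 0.13, edgeR adjusted p = 0.00288). Dcn, the proteoglycan decorin and also a mesenchyme marker, measured 8.90, 6.04, 23.8 and 24.4 CPM (log2 change 1.73, SE 0.21, edgeR adjusted p = 0.00197). Sparcl1 measured 18.2, 23.6, 46.0 and 42.6 CPM (log2 change 1.14, SE 0.16, edgeR adjusted p = 0.00495). These 3 rose in 2 of 2 eKO libraries. Fbln5, which assembles elastic fibres, fell from 6.08 and 37.6 CPM to 1.93 and 1.01 CPM (log2 change -3.83, SE 0.80, edgeR adjusted p = 0.0329), and the 2 controls are far apart. The Fbln5 call was lost under DESeq2 and under a looser gate, with log2 values from -4.64 to -1.97 and adjusted p-values up to 0.0665 over 12 alternatives. In mesenchyme Fbln5 measured 141, 193, 70.5 and 54.0 CPM (edgeR adjusted p = 0.0625) and Eln, elastin, 274, 440, 139 and 129 CPM (edgeR adjusted p = 0.116), and neither passed.

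**Figure D5:**
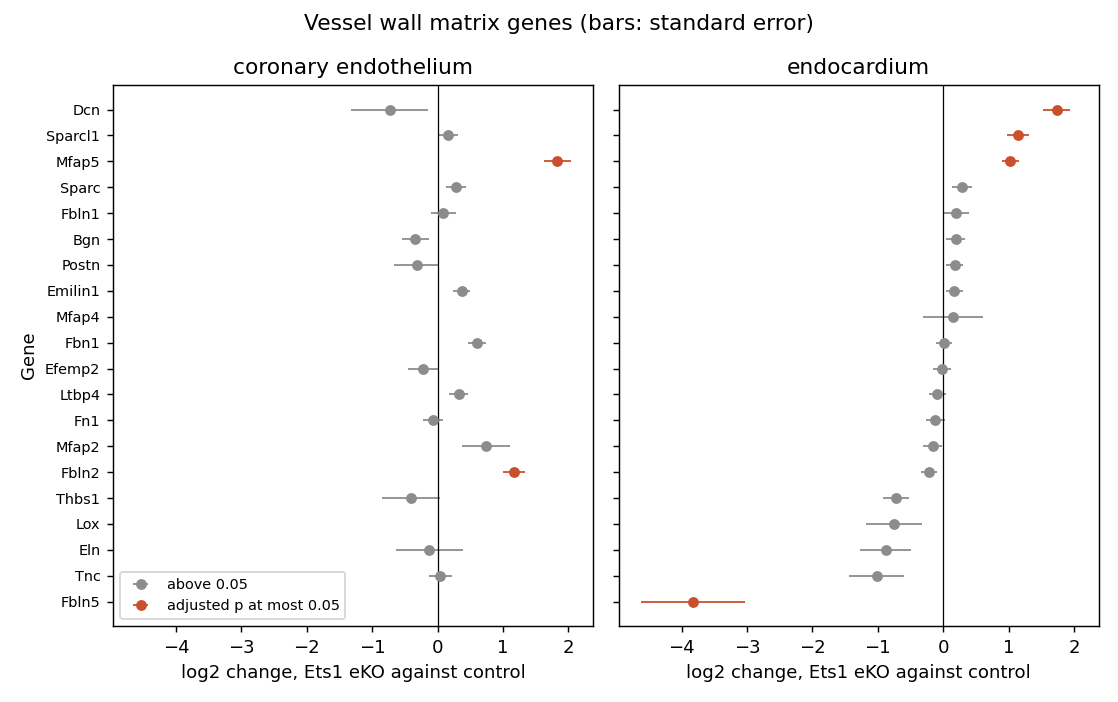
Log2 change (eKO against control, bars show the standard error) of vessel wall matrix genes in coronary endothelium (left) and endocardium (right), with genes at an edgeR adjusted p of at most 0.05 in orange. Mfap5 is high in both panels (1.83 and 1.03), and Fbln5 lies lowest in endocardium (-3.83).

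The 10 phagocyte genes showed no call by edgeR in any tested class. All 10 were tested in leukocytes, where their median was -0.05. In coronary endothelium 7, in endocardium 7 and in mesenchyme 8 were tested, with medians of 0.30, 0.19 and 0.12. Apoe was the most abundant in leukocytes (13425 CPM, SD 1383) and mesenchyme (599.5 CPM, SD 76.0). Fabp5 was so in coronary endothelium (4283 CPM, SD 1235) and endocardium (5887 CPM, SD 803). In coronary endothelium Fabp5 measured 3270, 3250, 4863 and 5749 CPM (log2 change 0.79, edgeR adjusted p = 0.0747), which did not pass. With 0.124% of all genes called higher in leukocytes, 10 genes would rarely include a call, so their absence says little.

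With 2 libraries a group, each of 3 pooled embryos, the part of sex makeup and depth in the group differences was not tested. Control replicate 2 and eKO replicate 1 were the closest match across groups. Xist was 297 CPM of the library in the former and 258 CPM in the latter, and Ddx3y 28.2 against 24.6 CPM. A median cell kept held 8582 against 8220 UMIs. In this pair endocardial Mgp was 439 against 782 CPM, and leukocyte Spp1 80.4 against 593 CPM. The pair has 1 library a group, and the genes were chosen on this same contrast. It holds the lower control for both genes and the higher eKO library for Spp1. It is therefore a description and tests neither sex nor depth. Spp1 rests on few leukocytes and coronary Mgp on few UMIs, so their sizes are less certain than that of endocardial Mgp.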

How the data were processed

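The deposited matrices hold raw UMI counts per gene and cell barcode from 10x Genomics 3′ libraries, which the authors made with Cell Ranger 7.1.0 on mm10 (their notes also name Seurat 4.3.0). The members and the gene lists were chosen with earlier results of these data known. Of 45551 barcodes, 41669 had 200 to 7000 genes, at most 20% mitochondrial, 2% hemoglobin and 35% ribosomal UMIs. Doublets (3666) were removed by neighbour scores against simulated doublets (2 per cell, 2000 genes, 30 components, 90 neighbours, 0.8% per 1000 cells). Depth ranged from 76931208 to 124140739 UMIs a library.

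Cells took the lineage with the highest marker score, scaled to its 95th percentile (99th for rare lineages), if it reached 0.6 and the next was at most 0.7 of it. Endothelium was split at a difference of 0.2, arterial and venous-leaning cells at 0.3 and mesenchyme types at 0.2. C1q-positive cells had at least 2 C1q UMIs. These thresholds were set after the data had been seen. Within 0.05 of a limit lay 388 of 38003 cells for the score (1.02%), 2989 for the ratio (7.87%), 159 of 6681 endothelial (2.38%), 127 of 1575 coronary (8.06%) and 947 of 6426 mesenchymal cells (14.7%). The gates left 6676 cells without a class.

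UMIs were summed per library and class and fitted with edgeR 4.0.16 (quasi-likelihood, TMM, filterByExpr, Benjamini-Hochberg at 0.05), which loads limma 3.58.1, with DESeq2 1.42.0 as the other tool, in R 4.3.3. The remaining steps ran in Python 3.11.15: pandas 2.3.3 and numpy 2.4.6 for tables, scikit-learn 1.9.0 for doublets, scipy 1.17.1 for intervals, matplotlib 3.10.9 for figures. CPM values are plain shares of the class's UMIs, and log2 changes come from the fit, with 2 exceptions. Values without the fullest cell, or with the cardiomyocyte level subtracted, are log2 ratios of the group mean CPM. Shares of cells used cells thinned to 2000 UMIs with exact 95% intervals, and a count of 0 was read against 3 counts. Named genes are the members, Ets1, per list and class the most abundant gene and up to 4 called genes with the largest change, the 5 genes most like each member, gate markers, free RNA references, Xist and Ddx3y. Others named without a call were picked after their values were seen. Alternatives were other scaling, no filter, a replicate block, leaving out each library, other gates and cell filters, keeping doublets and subtracting the cardiomyocyte level.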

Additional observations from a re-analysis of the deposited data

Results flagged for a closer look

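The fitted log2 change of Mgp had opposite signs in 3 pairs of classes, and none of these differences was tested. In arterial coronary endothelium the log2 change of Mgp was -0.65 (18.3, 17.1, 2.89 and 16.6 CPM), with both eKO libraries below both controls, where other coronary endothelium had both eKO libraries above (log2 change 2.60). Without eKO replicate 1 the arterial value was 0.00448, so its direction turns with 1 library. The difference between the 2 was not tested. In epicardium the log2 change of Mgp was -0.0895 (1711, 1593, 1574 and 1377 CPM) and in mural cells -0.48 (1061, 1584, 759 and 1029 CPM), with both eKO libraries below both controls in each, where endocardium had both above (log2 change 0.87). The epicardial value was 0.0173 without eKO replicate 2, so its direction turns as well. These differences from endocardium were not tested.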

How the results depend on the processing

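Of 186 alternative values of the log2 changes of Mgp and Spp1, 165 were counted as the same, 16 as moved and 5 as reversed. The first count allows some movement. It holds all 12 values of mural Mgp, from -0.73 to -0.18, where the first value was -0.48. The cause was not tested for any change given here. Endocardial Mgp stayed between 0.75 and 0.98 over 12 alternatives, and the contrast of coronary endothelium against endocardium stayed between -5.96 and -4.80 over 11.

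Leaving out 1 library at a time gave log2 changes of Mgp from 1.20 to 2.14 in coronary endothelium, from -2.49 to 0.00448 in arterial cells, from 1.51 to 2.75 in venous-leaning cells and from 1.93 to 4.90 in other coronary cells. It gave Mgp -0.40 to 0.16 in cardiomyocytes, -0.0569 to 0.55 in Tcf21-type mesenchyme and -0.20 to 0.0173 in epicardium. For Spp1 it gave 1.46 to 2.74 in leukocytes, 1.52 to 2.90 in C1q-positive leukocytes and 0.49 to 2.45 in mural cells. In cardiomyocytes Mgp was 0.54 with doublets kept. In venous-leaning cells it was 0.89 under the stricter gate. In mesenchyme Mgp was 0.13 with scaling by total counts, 0.31 under the stricter gate and 0.133 after subtracting the cardiomyocyte level. Spp1 in cardiomyocytes was 1.12 under the looser gate and 1.29 under the stricter cell filter. Without the fullest cell of each library Spp1 was 2.743 in leukocytes and 3.17 in C1q-positive leukocytes.

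The Mgp contrast of arterial against other coronary endothelium (-0.11) was 0.32 by DESeq2, 0.16 under the looser gate and 0.0581 under the stricter cell filter, and -0.61 to 0.56 when 1 library was left out. Under the stricter gate Mgp fell below the count filter in this contrast and has no value.

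The number of genes called in coronary endothelium (89) was 353 without the expression filter and 114 to 598 when 1 library was left out. In endocardium (380) it was 1182 and 327 to 2095. In mesenchyme (6) it was 43 with scaling by total counts, 60 by DESeq2 and 59 to 609 when 1 library was left out. In leukocytes (11) it was 5 by DESeq2, 58 without the expression filter, 4 under the stricter cell filter and 41 to 70 when 1 library was left out.

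With a replicate block, which pairs control and eKO replicates by number, the counts were 196 in coronary endothelium, 610 in endocardium, 132 in mesenchyme and 32 in leukocytes. The labels give no such pairing, and the crossed block in mesenchyme gave 347. The difference of replicate 1 from replicate 2 in controls correlated over genes with that in eKO libraries at r of -0.0832, -0.0249, -0.11 and -0.0451 in these classes.

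Differences in the share of cells with a UMI, eKO minus control in percentage points, depended on depth. For Mgp in endocardium (18.6) the difference was 8.50 with all UMIs. For Mgp in mesenchyme (-2.13) it was 0.503 at 1000 UMIs, -4.98 with all UMIs and -4.47 to 0.215 when 1 library was left out. For Mgp in leukocytes (1.55) it was -0.863 at 1000 UMIs. For Mgp in cardiomyocytes (-0.409) it was -0.141 at 1000 UMIs and -2.50 with all UMIs. For Spp1 in leukocytes (0.927) it was 3.002 at 1000 UMIs and -0.488 to 2.34 when 1 library was left out. For Spp1 in coronary endothelium (-0.0470) it was 0.175 at 1000 UMIs, 0.606 with all UMIs and -0.280 to 0.186 when 1 library was left out. For Spp1 in endocardium (0.0529) it was 0.246 with all UMIs and 0 to 0.106 when 1 library was left out. With all UMIs it was 0.168 for Spp1 in mesenchyme and 0.392 for Spp1 in cardiomyocytes.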
